A study of Mus musculus with 160 samples.

Results

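Vcam1 encodes a surface protein by which stromal cells hold blood cells in the marrow, and among the old cells of this study it was listed in most cells and missing from some. The comparison set old cells with Vcam1 RNA against old cells without, and the cells were chosen by their own Vcam1 value, 1 FPKM or more against less. Only cells with 600 or more named genes at 1 FPKM or more were used, which kept 58 of 78 old cells of the 160 cells measured. Of these, 47 carried Vcam1 and 11 did not. FPKM scales sequenced fragments by transcript length and by the depth of the cell, and a gene is called listed in a cell when it reached 1 FPKM.

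The cells came from the bone marrow of C57BL/6J mice, old at 24 months and young at 9 weeks by the sample labels (2 years and 10 weeks in the protocol text). They were sorted as cells that stained for the leptin receptor and CD140a and lacked CD45, Ter119 and CD31, and each was sequenced alone after microfluidic capture. The labels name no mutation or treatment for these cells and no animal for any cell. The old cells therefore count as 1 sample, cells are not replicates, and no test was made. Intervals are exact (Clopper-Pearson) 95% binomial intervals over cells and cover counting error only. A gene listed in 0 of 11 cells allows a share of up to 27.3%, which 3 cells would make.

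VCAM1 belongs to the immunoglobulin family of adhesion molecules. Its best known partner is an integrin of blood cells made of the chains encoded by Itga4 and Itgb1, and through it stem and progenitor cells, B cell precursors and others adhere to stroma. In inflamed endothelium the gene is switched on by NF-kB, whereas stromal cells of the marrow carry the protein without inflammation. The stromal cells known for it are the reticular cells that make the chemokine Cxcl12 and the stem cell factor Kitl, which keep blood stem cells in the marrow.

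Vcam1 itself chose the groups, so its values are a description. In the 47 cells with Vcam1 its level ran from 1.11 FPKM over a median of 21.6 to 553 FPKM, and 31 of them had 10 FPKM or more. In the 11 cells without, 5 cells stood at exactly 0 and 6 between 0.0114 and 0.452 FPKM. The limit of 1 FPKM thus fell between cells at 1.11 and 0.452 FPKM. Cells with Vcam1 made up 81% of the 58 (interval 68.6 to 90.1).

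**Figure D1:**
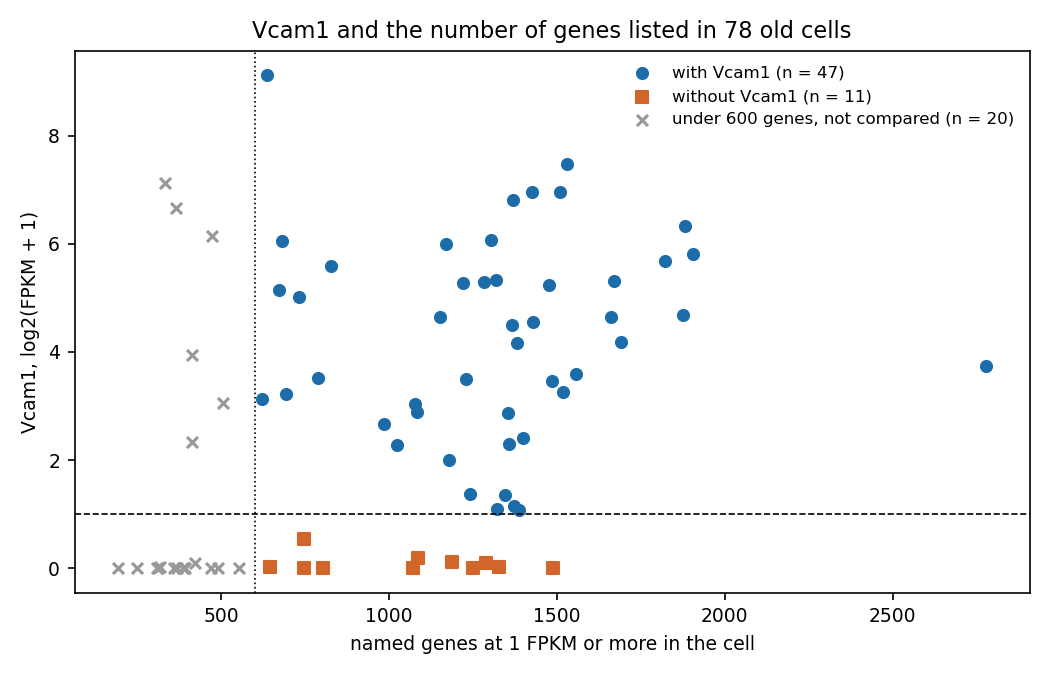
Vcam1 as log2(FPKM + 1) against the number of named genes at 1 FPKM or more, 1 point for each of 78 old cells. The dashed line is 1 FPKM and the dotted line 600 genes, and the 11 cells without Vcam1 lie between 644 and 1489 genes.

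The groups differed in how many genes a cell listed. Cells with Vcam1 had 622 to 2779 named genes with a median of 1354, and cells without had 644 to 1489 with a median of 1086. The groups overlapped, but 10 of the 11 cells without Vcam1 lay under the median of those with it. The share of old cells with Vcam1 was 30.0% (6 of 20 cells) under 600 genes, 69.2% (9 of 13) from 600 to under 1000, 78.6% (22 of 28) from 1000 to under 1400, and 94.1% (16 of 17) from 1400 up. Differences were therefore also adjusted for gene number, in a linear model with the group and the log2 gene number of the cell, and the adjusted value is given where it changes a call. Rows with no gene name held a median of 43.5% of the summed FPKM in cells with Vcam1 and 49.7% in cells without. Summed FPKM of named genes ran from 35905 over a median of 72065 to 7.38e+06 in cells with Vcam1. In cells without, this sum ran from 22242.5 over 99345 to 2.91e+06. Sums thus differed widely between cells of both groups.

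A single cell without Vcam1 stood apart from the other 57. It listed 1 of 7 marrow niche markers, Pdgfrb, whereas the cells with Vcam1 listed 5 to 7 and the other 10 cells without listed 3 to 7. Kitl was at 0, Lepr at 0.0164 and Cxcl12 at 0.104 FPKM in it. Neither Lepr nor Pdgfra, the genes of the sort markers leptin receptor and CD140a, was listed in this cell. It listed 4 of 8 fibroblast markers, where cells with Vcam1 listed at most 2 and the others without at most 1: Dcn (decorin) at 6453, Ly6a (the stem cell antigen Sca-1) at 302, Cd34 at 34.6 and Mfap5, a microfibril protein, at 21.1 FPKM. Col1a1 at 57.3 and the cartilage matrix gene Comp at 14.2 FPKM were listed there too. The cell had 1249 named genes. Differences of the niche markers are given with and without it.

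Across 4539 genes listed in 10% or more of the cells of either group, differences leaned toward the cells with Vcam1 in the unadjusted values. The median difference of mean log2(FPKM + 1), with Vcam1 minus without, was 0.19, and the median difference in the share of cells was 5.42 percentage points. Of all genes compared, 61.4% had a log2 difference above 0, and 53.1% did after adjusting for gene number. The median log2 difference was 0.05 after adjusting for gene number, -0.01 in cells matched on gene number and 0.01 without the cell of 1 niche marker. A gene is called past the size rule when both groups differed by 25 percentage points or more in share and by 1 or more in mean log2, in the same direction. Higher in cells with Vcam1 by this rule were 138 genes, 3.04% of those compared, lower were 57 genes, 1.26%, together 4.3%. After adjusting for gene number 64 genes were past it upward (1.41%) and 109 downward (2.4%), together 3.81%, so the balance of directions turned. Of the 138 genes, 62 stayed past the rule in the same direction after adjusting, and of the 57 genes, 55 did. In 8 of the 138 and 17 of the 57 a single cell held over 50% of the summed FPKM. These are counts past a size and not counts of genes shown to differ.

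**Figure D2:**
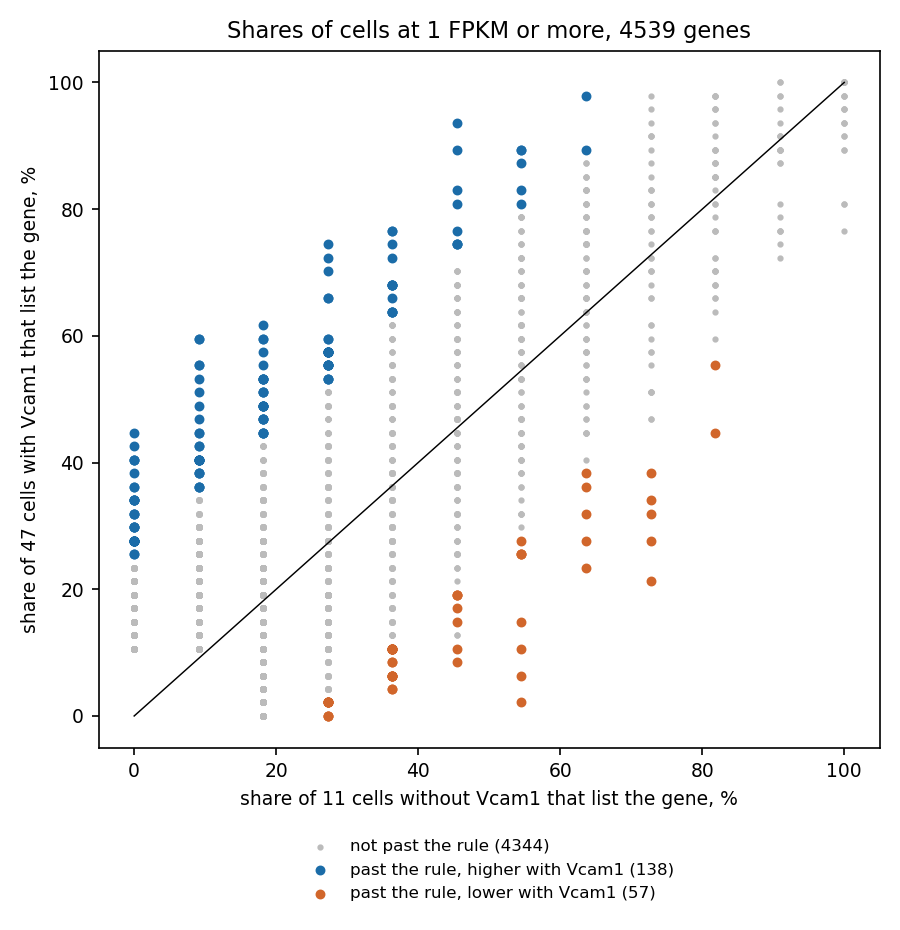
Share of the 47 cells with Vcam1 (vertical axis) against the share of the 11 cells without (horizontal axis) that list a gene at 1 FPKM or more, 1 point for each of 4539 genes. Blue marks the 138 genes past the size rule upward, orange the 57 downward, and the line is equal shares.

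The blood stem cell niche gene with the largest difference was Kitl, which encodes the stem cell factor. Kitl ran from 0.0516 over a median of 68.2 to 2351 FPKM in cells with Vcam1, and from 0 over 24.7 to 335 FPKM in cells without. It was listed in 46 of 47 cells with Vcam1 (97.9%, interval 88.7 to 99.9) and in 7 of 11 without (63.6%, interval 30.8 to 89.1), so the cells that lack it lay mostly in the smaller group while the rest overlapped. Mean log2 was 6.03 ± 2.05 with Vcam1 and 3.90 ± 3.28 without (SD over cells), a difference of 2.13. The difference was 2.35 after adjusting for gene number, 2.83 when each cell without Vcam1 was matched to the 2 nearest unused cells with Vcam1 by gene number, and 1.74 without the cell of 1 niche marker. Over all 18 alternative settings it ran from 1.14 to 3.05.

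The sequence before the start of Kitl is shown as the leading niche gene, together with that of Fos, an immediate early gene listed in every cell without Vcam1. Both are the 250 bases before the RefSeq start in build GRCm38.p6, whereas the expression values rest on mm9. Capitals mark TATAAA, searched on the sense strand, and TGACGT, the core of the cAMP response element, searched on both strands. No match overlaps another.
Kitl, chr10:100015571-100015820, plus strand: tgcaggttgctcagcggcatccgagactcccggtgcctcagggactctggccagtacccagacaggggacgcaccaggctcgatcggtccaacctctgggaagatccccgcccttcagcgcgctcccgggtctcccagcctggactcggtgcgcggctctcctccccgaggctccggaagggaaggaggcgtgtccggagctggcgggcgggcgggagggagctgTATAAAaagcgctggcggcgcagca
Fos, chr12:85473640-85473889, plus strand: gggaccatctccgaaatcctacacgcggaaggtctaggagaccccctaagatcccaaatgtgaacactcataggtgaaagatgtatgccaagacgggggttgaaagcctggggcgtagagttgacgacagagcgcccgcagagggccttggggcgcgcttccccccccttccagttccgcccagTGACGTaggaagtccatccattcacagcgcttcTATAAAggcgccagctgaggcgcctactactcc
TATAAA begins 25 bases before the start of Kitl and 33 before that of Fos, and TGACGT begins 66 bases before that of Fos. Of 32851 RefSeq promoters of the same length, 7.59% held TATAAA and 6.47% held TGACGT, against 4.31% and 10.6% of the promoters of the genes compared here. These are matches of letters, and whether a factor binds there was not measured.

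The other niche markers were less unequal and stayed short of the size rule. Lepr, the leptin receptor by which the cells were sorted, was listed in 46 of 47 cells with Vcam1 and 9 of 11 without, with medians of 78.9 and 23 FPKM and mean log2 of 5.95 ± 1.73 and 4.19 ± 2.42. Its difference of 1.76 was 1.53 after adjusting for gene number and 1.34 without the cell of 1 niche marker. Adipoq, the fat hormone adiponectin, was listed in the same numbers of cells, with medians of 233 and 107 FPKM and a difference of 1.28, which was 0.68 without that cell. Cxcl12 hardly separated the groups: it was listed in 47 of 47 and 10 of 11 cells, with medians of 874 and 729 FPKM. Its difference of 0.23 became -0.71 without the cell of 1 niche marker. The transcription factors Ebf3 and Foxc1, known to maintain these reticular cells, and Pdgfrb were each listed in 38 of 47 and 7 of 11 cells, with differences of 0.70, 0.29 and 0.95. Without the cell of 1 niche marker these were 0.44, 0.03 and 0.91.

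Pdgfra, which encodes CD140a, the other sort marker, leaned the other way. It was listed in 21 of 47 cells with Vcam1 (44.7%, interval 30.2 to 59.9) and 7 of 11 without (63.6%, interval 30.8 to 89.1), with medians of 0.269 and 6.30 FPKM. The difference of -0.92 fell short of the size rule, and the adjusted one of -1.22 was past it. Without the cell of 1 niche marker the difference was -1.18. The intervals overlap widely, and with all 78 old cells the difference was 0.57.

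**Figure D3:**
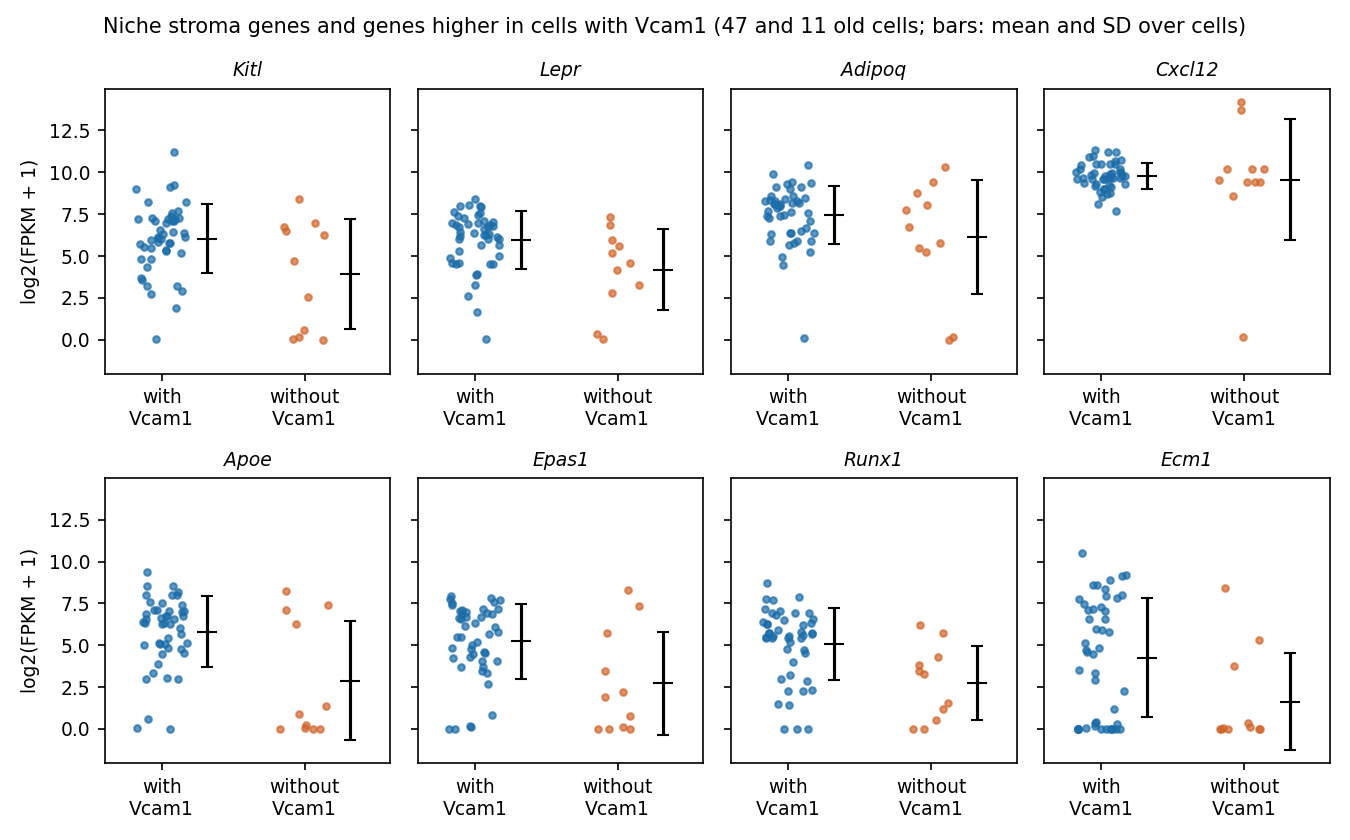
Values of 8 genes as log2(FPKM + 1) in each of 47 old cells with Vcam1 (left) and 11 without (right), with the mean and SD over cells as bars. Cxcl12 is high in nearly all cells of both groups, whereas for Kitl, Apoe and Epas1 a larger share of the cells without Vcam1 lies under 1 FPKM.

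Apoe, the lipid carrier apolipoprotein E, was among the genes furthest toward cells with Vcam1, with a difference of 2.93. Apoe ran from 0 over a median of 80.8 to 660.0 FPKM in cells with Vcam1 and from 0 over 0.854 to 306 FPKM in cells without. It was listed in 44 of 47 cells with Vcam1 (93.6%, interval 82.5 to 98.7) and 5 of 11 without (45.5%, interval 16.7 to 76.6). Apoe was named for its large difference in these same cells, so the distance between the intervals is no test. Its difference was 2.64 after adjusting, 2.90 in cells matched on gene number and 2.64 without the cell of 1 niche marker, and ran from 1.43 to 4.24 over the 18 settings. Both Kitl and Apoe were listed in 43 of 47 cells with Vcam1 and 4 of 11 without. In 3 of the 11 cells neither was listed, which was so in 0 of the 47.

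Epas1 and Runx1 encode transcription factors. Epas1, the hypoxia-inducible factor HIF-2α, was listed in 42 of 47 cells with Vcam1 and 6 of 11 without, with medians of 50.03 and 2.70 FPKM and mean log2 of 5.23 ± 2.23 and 2.72 ± 3.09. The difference was 2.51, and 1.83 after adjusting. Runx1, known for its role in blood formation and also carried by marrow stroma, was listed in 44 of 47 and 8 of 11 cells, with medians of 48.9 and 8.75 FPKM. Its mean log2 was 5.09 ± 2.15 and 2.73 ± 2.22, a difference of 2.35, while its share differed by less than 25 percentage points. Both kept their direction under all 18 settings.

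Ecm1, an extracellular matrix protein, was listed in 31 of 47 cells with Vcam1 and 3 of 11 without, with medians of 25.4 and 0.0215 FPKM. Clu, the secreted chaperone clusterin, was listed in 39 and 6 cells, with medians of 40.6 and 1.12 FPKM, and its difference of 2.45 was 1.87 after adjusting and then no longer past the rule. Lox, which crosslinks collagen and was read after its values were seen, was listed in 35 of 47 (74.5%, interval 59.7 to 86.1) and 3 of 11 cells (27.3%, interval 6.02 to 61). Col6a2, a chain of the microfibrillar collagen, was listed in 34 and 3 cells, and its difference of 1.89 was 1.67 after adjusting.

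P4hb, the protein disulfide isomerase of the endoplasmic reticulum, was listed in 28 of 47 cells with Vcam1 (59.6%, interval 44.3 to 73.6) and 1 of 11 without (9.09%, interval 0.23 to 41.3). Sat1, which breaks down polyamines, was listed in 21 of 47 cells (44.7%, interval 30.2 to 59.9) and 0 of 11, and no cell without Vcam1 exceeded 0.0374 FPKM. Slc25a5, an ADP/ATP carrier of mitochondria, was listed in 19 and 0 cells. Rbm3, a cold-inducible RNA-binding protein, was listed in 23 and 2 cells, and Atp5o of the ATP synthase in 28 and 2. Cstb (cystatin B), Tmem59 and Shfm1 had differences of 2.18, 2.15 and 2.67. In cells matched on gene number they were 0.65, 0.77 and 2.17. Cstb was also not past the rule after adjusting (1.61), and Shfm1, listed in 34 and 6 cells, was past it in neither.

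Lowest in cells with Vcam1, that is higher in those without, was Eef1b2, a translation elongation factor. Genes such as Eef1b2 and those of ribosomal proteins have near-identical copies in the genome, and how shared reads were counted is not described in the labels. Eef1b2 was listed in 10 of 47 cells with Vcam1 (21.3%, interval 10.7 to 35.7) and 8 of 11 without (72.7%, interval 39 to 94.0). It too was named for its difference in these cells, so the intervals are a description. The medians were 0 and 21.8 FPKM and the highest values 173 and 114 FPKM. The difference of mean log2 was -2.65, and -2.77 after adjusting. It stayed below 0 under all 18 settings.

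Tsc22d3, which encodes the glucocorticoid-induced leucine zipper, was listed in 21 of 47 cells with Vcam1 (44.7%, interval 30.2 to 59.9) and 9 of 11 without (81.8%, interval 48.2 to 97.7), a difference of -2.06. With all 78 old cells, its difference was 0.13. The joint row of Ang, the secreted ribonuclease angiogenin, and Rnase4 was listed in 16 and 8 cells, with medians of 0.0306 and 23.7 FPKM and a difference of -2.35. Map3k12, a kinase of the stress pathway, was listed in 13 and 8 cells (-2.07), and Cuta in 3 of 47 (6.38%, interval 1.34 to 17.5) and 6 of 11 (54.5%, interval 23.4 to 83.3).

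Cd81 and Mgp differed in level more than in share. Cd81, a tetraspanin of the cell surface, was listed in 24 of 47 and 8 of 11 cells, with medians of 1.21 and 25.4 FPKM and a difference of -2.13, which after adjusting was -2.62 and past the rule downward. Mgp, matrix Gla protein, which inhibits calcification, was listed in 42 of 47 cells with Vcam1 and 11 of 11 without. It ran from 0 over a median of 338 to 7957 FPKM with Vcam1, and from 23.1 over 1006 to 4332 FPKM without, so the ranges overlap. Mean log2 was 7.45 ± 3.15 and 9.16 ± 2.71, a difference of -1.72, -1.99 after adjusting and -1.60 without the cell of 1 niche marker. The splicing factor Srsf7, Klf2, Idh3g, Ccdc6, Ndufa1, Atp5j2 and Myeov2 completed the 14, with differences from -2.50 for Ndufa1 to -1.67 for Ccdc6. Ndufa1, Myeov2 and Ccdc6 were past the rule downward only after adjusting.

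Immediate early genes, which many signals induce within minutes, leaned toward the cells without Vcam1. Of 16 members compared, 5 had a difference above 0 and 11 below, where 61.4% of all genes lay above 0. The median was -0.36 against 0.19 over all genes. Over the 18 settings this median ran from -0.66 to 0.07. Fos was listed in 36 of 47 cells with Vcam1 (76.6%, interval 62 to 87.7) and 11 of 11 without (100%, interval 71.5 to 100), but the medians were 82.9 and 77.1 FPKM. Its difference of -1.54 was -1.95 after adjusting and then past the rule downward. The cells under 1 FPKM were 11 cells with Vcam1, and the values of the others overlapped. Egr1 was listed in 38 and 11 cells, with medians of 68.3 and 90.3 FPKM, and Jun in 33 and 9. Klf6 and Klf2 were past the size rule downward, where 1.26% of all genes were. They were listed in 12 and 6 and in 3 and 4 cells. With all 78 old cells, the difference of Klf6 was 0.19. Cyr61, a secreted matrix protein induced by growth factors, was past the size rule upward, where 3.04% of all genes were. It was listed in 21 of 47 cells with Vcam1 and 1 of 11 without.

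**Figure D4:**
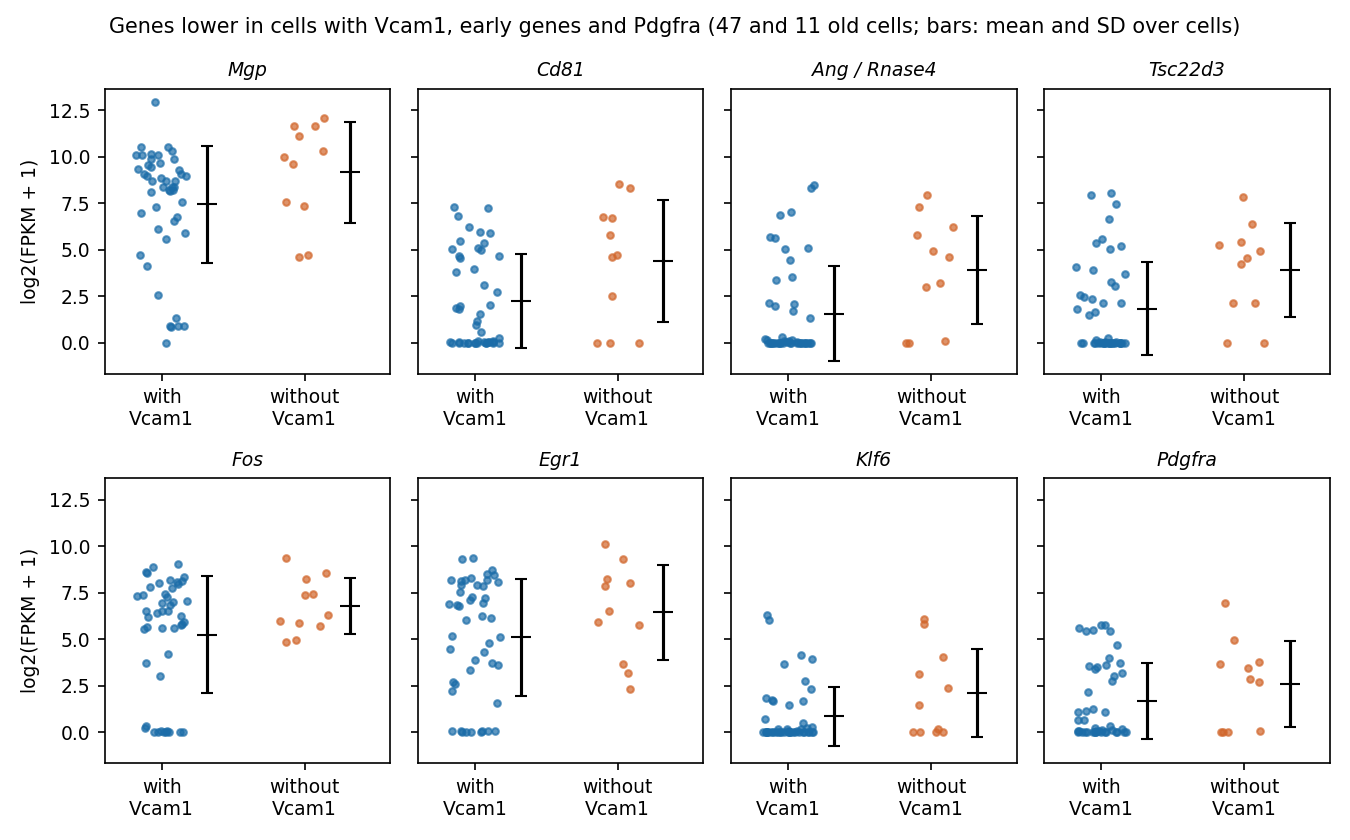
Values of 8 genes as log2(FPKM + 1) in each of 47 old cells with Vcam1 (left) and 11 without (right), with the mean and SD over cells as bars. Fos and Egr1 are listed in 11 of 11 cells without Vcam1, and Mgp reaches high values in both groups.

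Of 18 partners of VCAM1 and other adhesion molecules 6 could be compared. Among them 5 lay above 0, where 61.4% of all genes did, with a median difference of 0.56 against 0.19. After adjusting the median was 0.29, against 0.05 over all genes, and 0 were past the rule. Itga4, which encodes the partner chain of blood cells, was listed in 0 cells. Itgb1 was past the size rule upward (30 of 47 and 4 of 11 cells, difference 1.05), and was not after adjusting (0.68). Cd47, the signal that protects cells from phagocytes, and Cdh11, the mesenchymal cadherin, had differences of 1.26 and 1.24 short of the rule, and of 1.12 and 0.64 after adjusting. Icam1, the other adhesion molecule that NF-kB induces, was listed in 7 of 47 and 2 of 11 cells. Of the 18 NF-kB targets and inflammatory genes compared, 0 were past the rule. Above 0 lay 12 and below 0 lay 6, where 61.4% of all genes lay above 0. The median was 0.18 against 0.19 over all genes.

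The other gene groups are set against the same 0.19 (0.05 for adjusted medians) and against 3.04% of genes past the rule upward and 1.26% downward. Counts above 0 are set against 61.4% of all genes above 0, or 53.1% after adjusting. Among blood stem cell niche factors, 14 of 14 lay above 0 with a median of 0.31, but Kitl alone was past the rule. Above 0 were 12 of the 14 after adjusting, 8 in cells matched on gene number and 12 without the cell of 1 niche marker. Over the settings the median ran from -0.00 to 0.85. Of 10 adipogenic genes 9 lay above 0 (median 0.23), with Apoe and Agt, the angiotensin precursor, past it. Agt was not past it after adjusting (1.31). Osteogenic genes had a median of 0.78, which ran from -0.11 to 1.26 over the settings, with 9 of 11 above 0 and 0 past the rule. Ibsp, bone sialoprotein, was listed in 45 of 47 and 8 of 11 cells with a difference of 1.59. It was 1.6 and past the rule after adjusting, and 0.97 without the cell of 1 niche marker. For marrow stromal transcription factors the median was -0.07, with 6 of 14 above 0 and Klf6 past the rule downward. Stromal receptors and surface markers had 4 of 6 above 0 (0.44), and after adjusting 2 of them were past the rule downward. Collagens and matrix had 17 of 29 above 0 (0.19) with Col6a2 past the rule, and fibroblast genes 3 of 7 (-0.06).

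TGF-beta and BMP genes had a median of 0.26, with the coreceptor Tgfbr3 (42 of 47 and 6 of 11 cells, difference 1.63) and the inhibitor Id3 past the rule upward, of which Id3 was not after adjusting (0.63). Wnt genes had a median of 0.26, and of 0.06 after adjusting, with Tcf7l2 past the rule upward before adjusting only. For the IGF axis the median was 0.15, with 0 genes past it. Acute-phase and iron genes had a median of -0.00, with the joint row of Serpina3f and Serpina3g past the rule upward (difference 1.99). Complement genes had a median of 0.61, with Clu past the rule, and of 0.37 after adjusting with 0 past it. Interferon response genes had -0.19, with Irf7 past it downward, listed in 3 and 4 cells. Class I antigen presentation genes had a median of 0.31 and p53 and cell cycle arrest genes one of 0.22, and both groups had 0 past the rule. Retinoic acid and detoxifying enzymes had a median of 0.11. Among them Aldh1a2, which makes retinoic acid, was listed in 39 of 47 cells with Vcam1 (83.0%, interval 69.2 to 92.4) and 5 of 11 without (45.5%, interval 16.7 to 76.6). Adh1 was the other one past the rule upward, listed in 12 and 0 cells. Its difference of 1.64 was 1.03 after adjusting, not past the rule, and 0.31 in cells matched on gene number.

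Apart from lists of cell type markers, the medians of ribosomal protein, oxidative phosphorylation and housekeeping genes changed most on adjusting for gene number. Ribosomal protein genes had a median difference of 0.55, with 33 of 48 above 0 and 5 past the rule upward, and after adjusting for gene number the median was 0.02, with 2 past it upward. Rps19 stood out among them, listed in 42 of 47 and 5 of 11 cells with a difference of 3.51 and, adjusted, 2.94. Oxidative phosphorylation genes had a median of 0.43 with 29 of 45 above 0, and -0.06 after adjusting. Within them 6 genes were past the rule upward, with Atp5o and Cox8a highest, and Atp5g3 downward. After adjusting, 2 were past it upward and 3 downward. The unfolded protein response had a median of 0.04, and of -0.00 after adjusting. P4hb and Pdia6 were past the rule in it, of which Pdia6 was not after adjusting (0.82). Housekeeping genes had one of -0.30, which was -0.82 after adjusting, with Gapdh and Tubb5 past it upward. After adjusting, 0 were past it upward and 2 downward. In cells matched on gene number the difference of Gapdh was 0.71. Malat1, the nuclear noncoding RNA, was listed in all 58 cells with a difference of 0.05.

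**Figure D5:**
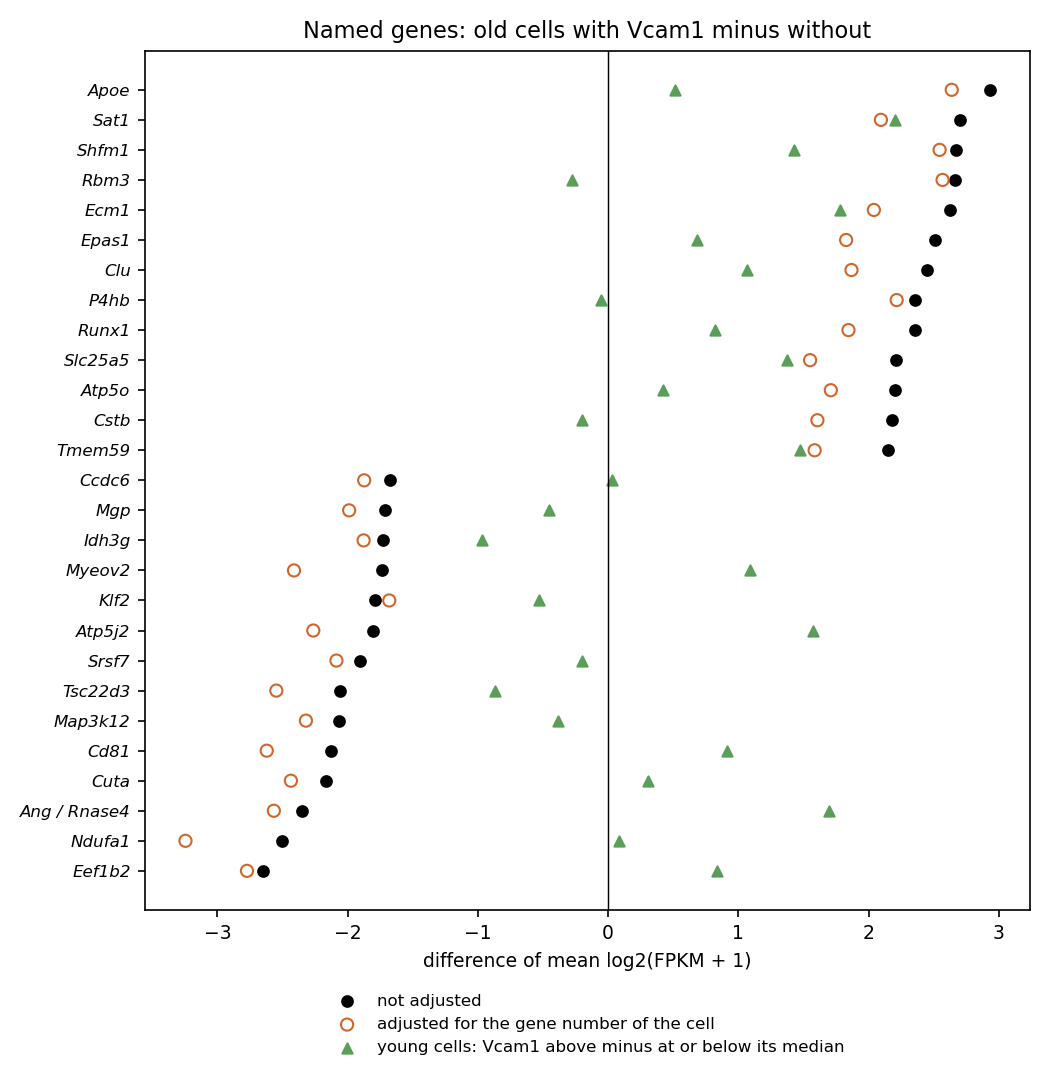
Differences of mean log2(FPKM + 1) for named genes, old cells with Vcam1 minus without, not adjusted (black) and adjusted for the gene number of the cell (open orange). Green triangles show young cells with Vcam1 above its median minus those at or below it, which fall on either side of 0.

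Markers of blood and vessel cells were near absent from both groups. Endothelial markers were listed in 0 of 58 cells. No cell with Vcam1 listed more than 1 member of the hematopoietic, erythroid, megakaryocyte, pericyte and smooth muscle or macrophage lists, and no cell without listed any. Neither CD45 (Ptprc) nor CD31 (Pecam1) RNA was listed anywhere. Schwann cell members reached at most 2 in a cell with Vcam1 and 1 in a cell without, as did proliferation genes. Osteoblast members reached 3 and 2, and chondrocyte and adipocyte members 1 in both groups. Single members of the stromal lists were common: Ibsp of the osteoblast list and Adipoq of the adipocyte list as given above, Dcn of the fibroblast list in 35 of 47 and 7 of 11 cells, and S100b of the Schwann cell list in 19 and 5. Fibroblast members reached 2 in a cell with Vcam1 and 4 in a cell without, the cell of 1 niche marker. Macrophages of the marrow are also known to carry VCAM1, and the macrophage genes Csf1r, C1qa and C1qb were at 0 FPKM in all 58 cells. Xist, from the inactive X chromosome, was listed in 40 of 47 cells with Vcam1 and 9 of 11 without.

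Whether genes also followed the level of Vcam1 was described in the cells that list it. Among the 47 old cells, 23 lay above the median of 21.6 FPKM and 24 at or below, with close medians of 1368 and 1350 genes per cell. Genes past the size rule were 0.7% upward and 0.803% downward, together 1.5%. Kitl differed by 0.32 between those cells (mean log2 6.19 above and 5.87 at or below), and Apoe by 0.57. Epas1, Runx1, Ecm1, Clu and Rps19 had differences below 0 (-0.13, -0.83, -1.09, -1.14 and -1.46), opposite to the comparison of cells with and without Vcam1. So did Rbm3, Shfm1, P4hb, Sat1 and Atp5o (-2.34, -1.02, -0.86, -0.31 and -0.08). Slc25a5, Cstb and Tmem59 lay above 0 (0.14, 0.03 and 1.25).

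The genes whose values ran most like Vcam1 over all 58 cells were Gas6, Dcaf6, Tmem59, Dag1, Aff4, Tgoln1, Lats2 and Araf, ranked by Spearman's rho among 1220 genes listed in 25% or more of the cells. The highest rho was 0.45 for Gas6, a secreted ligand of receptor tyrosine kinases, and the lowest of the 1220 was -0.42. The gene number of a cell had a rho of 0.28 with Vcam1. All points come from the old cells of unknown depth, so the values only describe them. Gas6 was listed in 36 of 47 cells with Vcam1 and 5 of 11 without. Its difference of 1.85 was 1.09 after adjusting, not past the rule, and 0.81 in cells matched on gene number.

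Young cells were not used to choose the groups and gave little to set beside them. The ages also differed in sex-linked RNA. Among young cells with Vcam1, Xist was listed in 0% both above and at or below their median Vcam1. Ddx3y, from the Y chromosome, was listed in 21.9% and 15.2% of them. In old cells Ddx3y was listed in 0 of 47 and 0 of 11, and most listed Xist. Age and sex can therefore not be told apart where old and young cells are set side by side. Of 67 young cells with 600 or more genes, 65 carried Vcam1 (97.0%, interval 89.6 to 99.6), with a median of 75.8 FPKM, and 2 did not. Apoe was at 10.3 and 0 FPKM in the 2 young cells without Vcam1, against a median of 85.0 FPKM in those with it. Mgp was at 31.4 and 5.15 FPKM in them, against 200.4 FPKM. The low value of Mgp there is opposite to the old cells without Vcam1. By level, 32 young cells above their median Vcam1 were set against 33 at or below it, with medians of 1291.5 and 1142 genes per cell, and 1.4% of genes were past the rule upward and 0.21% downward, together 1.61%. Of the 138 genes higher in old cells with Vcam1, 137 could be compared in young cells and 92 lay above 0 (67.2%), where 58.6% of all genes did. Of the 57 lower genes 42 could be compared, and 20 lay below 0. Genes are not independent replicates, so no test was made of these shares.

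Cells of each group resembled one another weakly. Across 4539 genes, Spearman's rho between 2 cells had a median of 0.25 among cells with Vcam1 (1081 pairs), 0.22 among cells without (55 pairs) and 0.23 between the groups (517 pairs). Pairs share cells and differ in gene number, so this is a description.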

How the data were processed

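RNA of single sorted marrow stromal cells was deposited by the authors as 1 table of FPKM per gene and cell. Per the submitters' processing notes it was made with Cufflinks 2.1.1 on mm9. Shared reads, filters and read totals are not described, so depth is unknown and no count model was used. The table has 31199 rows. Those lacking a name (7751) were dropped, and 468 repeated names were added up within a cell, giving 22866 names. An FPKM of 0 can be a failed estimate.

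Members and lists were chosen with earlier results of these data known. Columns were matched to samples by title, and replicate numbers only name cells. Levels were log2(FPKM + 1). A gene was compared when listed in 10% of the cells of either group. Named genes are the 14 highest and 14 lowest differences of mean log2 among genes listed in 25% of a group, with both measures of the same sign and at most 50% of the FPKM in 1 cell, leaving out predicted, ribosomal protein, mitochondrial and small RNA genes. For each list the members with the highest and lowest difference and the 2 highest means qualify. One of the 28 is not reported here. Other genes were picked after their values were seen. The steps were tested on old cells with Vcam1 drawn again into equal groups with planted changes, and on a planted effect of gene number. The uneven group sizes compared here were not simulated. Python 3.11.15, numpy 2.4.6, pandas 2.3.3, scipy 1.17.1 and matplotlib 3.10.9 were used. Promoter sequences are from RefSeq.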

Additional observations from a re-analysis of the deposited data

Results flagged for a closer look

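The unnamed part of the table enters no comparison but holds signal. It took a median of 43.5% of all FPKM in old cells with Vcam1, against 49.7% in old cells without, and its content was not analysed here. Each age is 1 sample, too few to look for samples that stand apart.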

How the results depend on the processing

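The counts of genes past the size rule, 138 upward and 57 downward, moved with the processing. With a pseudocount of 10, which brings low and high values closer in log2, they were 19 and 6, and with all old cells 272 and 0. With cells of 1000 genes or more (38 and 7 cells) they were 242 and 172, within the interquartile range of gene number (23 and 5 cells) 259 and 359, and against cells at exactly 0 for Vcam1 (47 and 5 cells) 299 and 297. In these settings 6172, 5223 and 5182 genes were compared, since 1 of 7 or of 5 cells reaches the 10% filter. With no filter on genes (47 and 11 cells) the counts past the rule stayed at 138 and 57. Adjusted for gene number they were 64 and 109, and in cells matched on gene number, a setting added after the data were seen, 76 and 136. In cells that list Xist 211 were upward. Without the cell of 1 niche marker, also added later, they were 171 and 61. The cause of these shifts was not tested. The share of cells with Vcam1, 81%, was 91.4% above 0 FPKM, 53.4% at 10 FPKM and 67.9% in all old cells. Of the 28 named genes 25 kept their direction in all 18 settings. The exceptions, in all old cells, were Tsc22d3 (0.13), Atp5j2 (0.42) and Myeov2 (0.88), and among list members past the rule Klf6 (0.19). Of 99 named genes and members of the lists, 51 kept their direction throughout. No paired analysis was possible because replicate numbers only name cells and both groups come from the same age. Depth is unknown, and 11 cells limit every share.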
